A study of Mus musculus with 16 samples.

Results

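The distal convoluted tubule and the connecting tubule of the kidney were followed through 10 genes that mark or equip them, across all 16 kidney libraries of the series. The genes were chosen by symbol, with earlier results of these data known: Slc12a3, Pvalb, Calb1, Trpm6, Trpv5, Slc8a1, Wnk1, Klhl3, Kcnj10 and Kcnj16. All 10 were present among the 20525 genes of the deposited matrix, and all 10 passed the filter on low values that left 18035 genes for testing. Levels are given as normalized counts, meaning the values of the deposited matrix, which its name ascribes to normalization with DESeq2. Changes are differences of log2(normalized count + 1) with their standard error (SE), tested with limma, and a gene was called at a Benjamini-Hochberg adjusted p below 0.05 over the 18035 genes.

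The libraries came from lysed frozen kidney sections, 30 µm thick, of mice aged 8 weeks, and C56BL/6 is the spelling of the background in the labels. Mice were either WT or labelled C3-/-, a genotype that targets complement component C3. Rhabdomyolysis, the breakdown of skeletal muscle, was induced with 7.5 ml/kg of 50% glycerol in the thigh muscle, and control mice received PBS. Genotype and injection thus made 4 groups, with 4 libraries in each. The labels give neither sex, nor the time from injection to sampling, nor whether libraries came from separate animals. The p-values are therefore set by how far libraries of a group spread, and that spread may be technical. In lysates of whole sections, fewer cells of a type and less RNA per cell cannot be told apart. The segment from which a transcript came was not measured either.

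The distal convoluted tubule reabsorbs sodium chloride through the thiazide-sensitive cotransporter encoded by Slc12a3. WNK kinases switch this cotransporter on through the kinase SPAK, and KLHL3 with cullin 3 marks WNK kinases for degradation. The same segment takes up magnesium through TRPM6, and its late part and the connecting tubule take up calcium through TRPV5, carry it on calbindin and extrude it through the sodium-calcium exchanger encoded by Slc8a1.

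The deposited values summed to between 25810749 and 38388663 per library, while read depth is unknown. The labels' descriptions number 13 libraries from 1 to 13, whereas WT glycerol library 4 and C3-/- glycerol libraries 1 and 3 carry the repeated numbers 3, 4 and 5. These 3 libraries stood apart for several genes below, and WT glycerol library 4 had 3374 genes listed at 0 against 190 to 982 in the other 15. Calls of the 10 genes that changed without them are given with all 16 libraries and with the 13 others, which leaves 3 WT and 2 C3-/- glycerol libraries. The Y-linked gene Ddx3y was present in 11 libraries and at or near 0 in 5, all labelled C3-/-. C3 transcript was not reduced under the C3-/- label. After PBS it lay between 334.9 and 470.5 in WT and between 563.8 and 1139.7 in C3-/-, and after glycerol between 1711.7 and 4717.5 and between 1457.3 and 8008. Which part of C3 is deleted was not stated in the sources, and the gene total therefore does not check the label, and C3-/- below means the libraries labelled so.

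Promoter sequence was compared for the members because most of them were lower together in WT kidneys after glycerol. RefSeq promoters (build GRCm38.p6) matched 9 of the 10 members, all but Calb1, with 13 windows in all (4 for Kcnj16, 2 for Pvalb and 1 for each of the others). Shown 5′ to 3′ are the 250 bases before the start of Slc12a3, which defines the segment (chr8:94328958-94329207, + strand), of Pvalb and Klhl3, which had the largest falls (chr15:78206401-78206650 and chr13:58113648-58113897, both − strand), and of Kcnj16, which held the most motif matches (chr11:110967783-110968032, + strand). Capitals mark the searched motifs.
Slc12a3: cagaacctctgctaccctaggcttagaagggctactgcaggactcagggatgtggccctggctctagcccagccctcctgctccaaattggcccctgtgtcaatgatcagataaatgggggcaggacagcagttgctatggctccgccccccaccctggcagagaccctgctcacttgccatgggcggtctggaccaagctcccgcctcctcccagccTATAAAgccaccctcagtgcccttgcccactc
Pvalb: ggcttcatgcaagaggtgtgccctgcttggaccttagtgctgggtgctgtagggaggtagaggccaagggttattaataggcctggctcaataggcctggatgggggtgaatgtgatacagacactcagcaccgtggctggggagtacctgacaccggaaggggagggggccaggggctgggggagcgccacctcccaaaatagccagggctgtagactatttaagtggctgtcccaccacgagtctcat
Klhl3: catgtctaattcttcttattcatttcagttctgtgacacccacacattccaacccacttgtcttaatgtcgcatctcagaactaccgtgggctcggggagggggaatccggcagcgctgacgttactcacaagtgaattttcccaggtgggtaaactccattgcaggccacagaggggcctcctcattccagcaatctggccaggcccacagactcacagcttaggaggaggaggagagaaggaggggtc
Kcnj16: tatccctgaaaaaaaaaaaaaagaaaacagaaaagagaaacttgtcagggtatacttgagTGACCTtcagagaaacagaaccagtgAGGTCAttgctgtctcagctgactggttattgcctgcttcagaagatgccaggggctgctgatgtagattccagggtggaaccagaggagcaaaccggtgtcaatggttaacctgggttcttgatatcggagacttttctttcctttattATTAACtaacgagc

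The motifs, searched on both strands over these bases and the 50 that follow the start, were the TATA box, spelled TATAAA, the HNF1 motif, spelled GTTAAT, the nuclear receptor motif, spelled AGGTCA, and the E-box, spelled CACGTG. None of them contains another. Slc12a3 had a TATA box starting 32 bases before the start (position -32), and Trpv5 had one at position -43, while 13.6% of 32851 promoters of this length held one. Another Kcnj16 window, not shown, had a TATA box at position -133. The Kcnj16 window shown had AGGTCA at position -164, its reverse complement at -190 and the reverse complement of GTTAAT at -14. Of all promoters, 16.3% held AGGTCA, 7.1% held GTTAAT and 7.15% held CACGTG. The windows of Pvalb, Klhl3, Trpm6, Slc8a1, Wnk1 and Kcnj10 held no match to these letters.

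Most of the distal genes were lower in WT kidneys after glycerol. Of the 10 members, 7 were called lower and none higher, where 13.3% of all tested genes were called lower and 25.9% in either direction. The median change of the members was -1.58 on the log2 scale, against -0.11 for all tested genes. Values of the 4 glycerol and 4 PBS libraries did not overlap for 8 members, all lower after glycerol, which held for 22.4% of all genes. In C3-/- kidneys 1 member, Calb1, was called lower, against 1.96% of all genes lower and 5.63% in either direction, and the member median was -0.88 against -0.06. Values did not overlap for 4 C3-/- members (Calb1, Klhl3, Wnk1 and Kcnj16), all lower, which held for 9.71% of all genes. Before adjustment, 7 members had a limma p below 0.05 in C3-/-, all lower, and 7 in WT. The share of all genes below this unadjusted p is not given here, so these counts do not set the members apart. The smaller count of called members in C3-/- depends in part on the adjustment over all genes. The member median was also nearer 0 there, at -0.88 against -1.58 in WT.

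**Figure D1:**
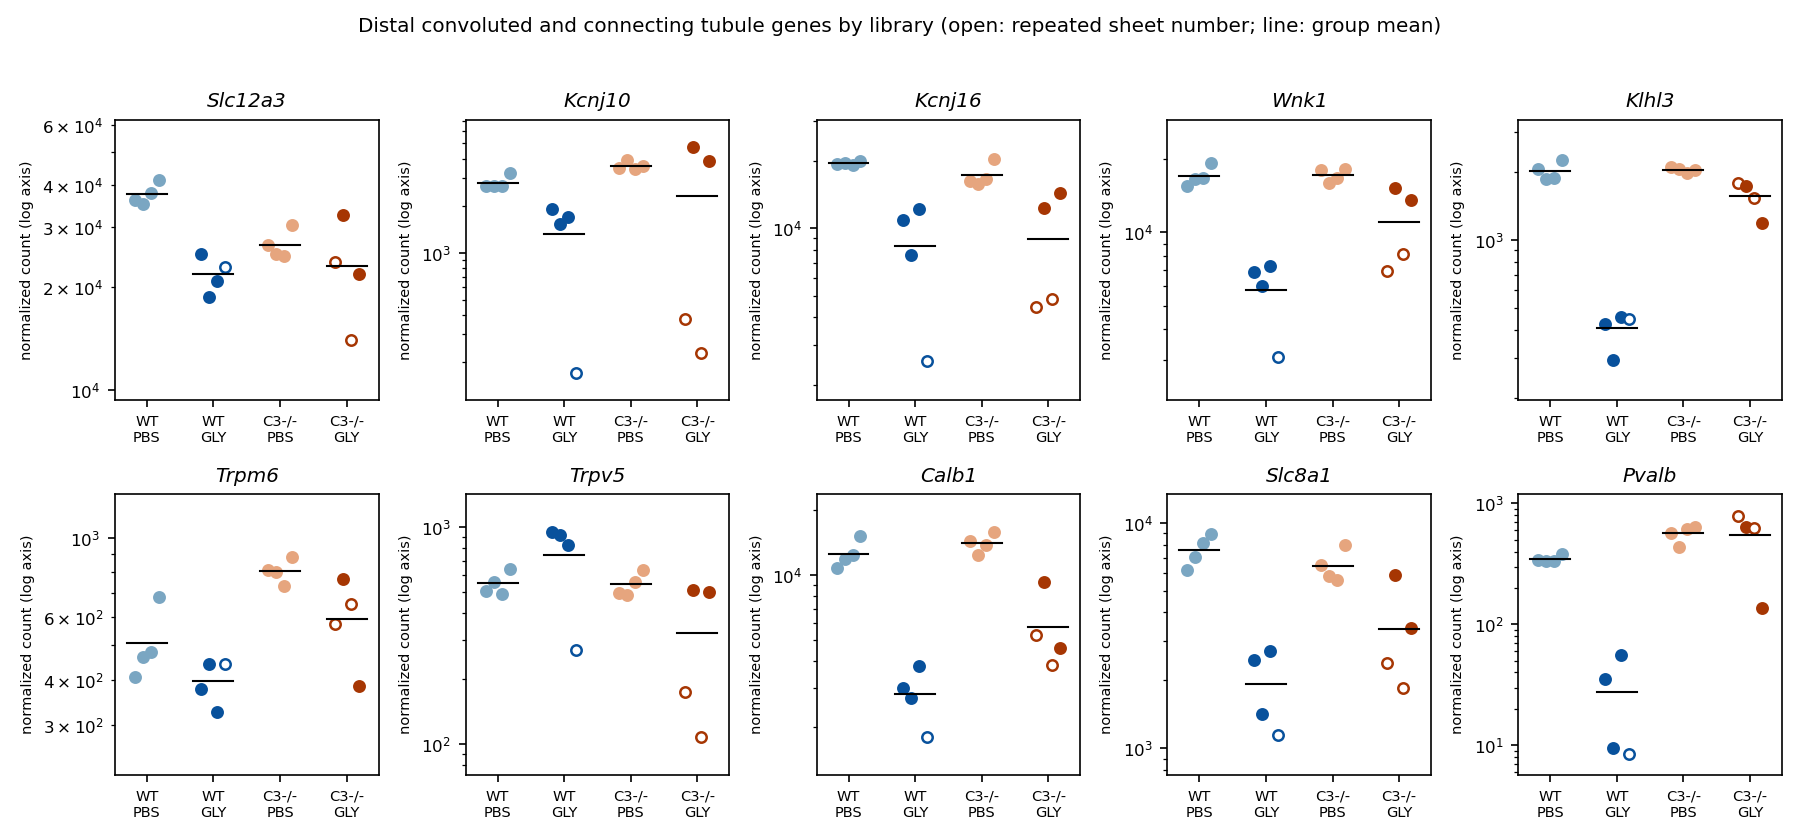
Normalized counts (log axis) of the 10 genes in each of the 16 libraries, by group; open circles are the 3 libraries with a repeated number and lines are group means. Klhl3 and Pvalb are low in all 4 WT glycerol libraries, while the open circles of Kcnj10 lie far below the filled ones in both glycerol groups.

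Slc12a3, the sodium-chloride cotransporter itself (ENSMUSG00000031766, chr8:94329201-94366214), fell modestly in WT. Its values were 36009.5, 35231, 37753 and 41441 after PBS and 25059.5, 18759.9, 20899 and 23011 after glycerol. All 4 glycerol libraries lay below all 4 PBS libraries. The change was -0.78 ± 0.22 (SE, n = 4 per group; limma adjusted p = 0.0177), which leaves 58.3% of the PBS mean. This call ended with quantile normalization (-0.56, adjusted p = 0.196), without WT PBS library 4 (0.0521) and without WT glycerol library 2 (0.0503). It held without the 3 libraries of repeated number (-0.81, adjusted p = 0.000559). With terms for the repeated numbers and for the presence of Ddx3y it also held (-0.72, adjusted p = 0.00506).

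In C3-/- kidneys Slc12a3 was at 26606, 25051, 24706 and 30509 after PBS and at 23793, 32534, 13989.7 and 21902.5 after glycerol. These groups overlapped, with the highest and the lowest value both in the glycerol group, and the change was -0.27 ± 0.22 (limma adjusted p = 0.424). After glycerol the genotypes had nearly equal means, 21932 ± 2713 in WT and 23055 ± 7614 in C3-/- (SD, n = 4). The difference was 0.02, with a 95% interval from -0.46 to 0.49.

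Kcnj10 and Kcnj16 encode both subunits of the basolateral potassium channel through which distal cells sense plasma potassium. Kcnj16 (chr11:110968033-111027968) was at 19363, 19605, 19144.5 and 19976 in WT after PBS and at 10903, 7598, 12214 and 2562 after glycerol. All glycerol values were below all PBS values, and the change was -1.45 ± 0.45 (limma adjusted p = 0.0263). WT glycerol library 4 was the lowest by far: without it the change was -0.96 (adjusted p = 0.0576), and leaving out any WT PBS library or WT glycerol library 2 gave adjusted p between 0.0509 and 0.0578. The call also ended with quantile normalization (-1.26, adjusted p = 0.0822). Without all 3 libraries of repeated number the fall was called (-0.96, adjusted p = 0.000142).

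In C3-/- kidneys Kcnj16 was at 16308.5, 15789, 16527 and 20329 after PBS and at 4463, 12279, 4846 and 14335 after glycerol. The groups did not overlap, and libraries 1 and 3 were far below the other glycerol libraries. The change of -1.13 ± 0.45 was not called (limma adjusted p = 0.144). In the 13 other libraries it was -0.37 (adjusted p = 0.129).

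Kcnj10 (chr1:172341210-172374085) split the glycerol libraries most sharply. WT libraries were at 2676, 2660.3, 2663 and 3210.3 after PBS and at 1896, 1524, 1703 and 170.3 after glycerol. C3-/- libraries were at 3472, 3907, 3415 and 3599 after PBS and at 377, 4734, 228 and 3857 after glycerol. The 3 lowest values are those of the 3 libraries of repeated number, while C3-/- glycerol library 2 lay above all C3-/- PBS libraries and library 4 above 3 of them.

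With all 16 libraries the Kcnj10 changes were -1.54 ± 0.89 in WT (limma adjusted p = 0.219) and -1.68 ± 0.89 in C3-/- (0.246), neither of them called. Leaving out the 3 libraries, Kcnj10 fell in WT by 0.72 on the log2 scale (adjusted p = 8.61e-05), and in C3-/- the direction turned to 0.25 (adjusted p = 0.141). After glycerol the C3-/- level minus the WT level was 0.23 ± 0.89 with all 16 libraries (adjusted p = 0.91). It was 1.33 in the 13 others (adjusted p = 1.81e-05). The difference between the responses was -0.14 with all 16 (0.995) and 0.97 in the 13 others (0.00378). Among the C3-/- glycerol libraries, the mean log2 value of libraries 1 and 3 minus that of libraries 2 and 4 was -3.86 for Kcnj10, outside the range from -2.37 to 2.02 that held the 5th to the 95th percentile of all tested genes. The same difference was -1.88 for Trpv5, -1.51 for Kcnj16 and -1.10 for Slc8a1, but 0.20 for Klhl3, 0.17 for Trpm6 and 1.25 for Pvalb. Wnk4, the kinase that acts on the cotransporter in this segment, was singled out after its values were seen. It was at 20085, 38478 and 29391 in the 3 libraries and between 2085 and 5902 in the other 13, the opposite direction to Kcnj10.

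Klhl3, the adaptor that brings WNK kinases to cullin 3 (ENSMUSG00000014164, chr13:58000228-58113592), showed the clearest contrast between the genotypes. In WT it was at 2054, 1863, 1875 and 2261 after PBS and at 427, 294, 455 and 449 after glycerol. All 4 glycerol libraries were low and within a narrow range, the library of repeated number included. The fall was -2.32 ± 0.17 (limma adjusted p = 9.38e-07), which is 5.01-fold lower on this scale.

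In C3-/- kidneys Klhl3 was at 2093, 2045, 1963 and 2031 after PBS and at 1780.2, 1724, 1529 and 1188 after glycerol. The glycerol values were again all below the PBS values, but the change of -0.40 ± 0.17 was not called (limma adjusted p = 0.158). After glycerol every C3-/- library was above every WT library, and the difference of 1.94 ± 0.17 was called (adjusted p = 3.68e-06). The difference between the glycerol responses was 1.92 ± 0.24 (adjusted p = 0.00268), and 1.87 without the 3 libraries (0.00099).

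Wnk1 encodes the upstream kinase, and the gene total does not separate its long form from the short kidney form that lacks most of the kinase domain. Levels in WT were 15537, 16514, 16785.5 and 19349 after PBS and 6907, 6026, 7265 and 3071.5 after glycerol. Levels in C3-/- were 17972, 15945, 16695 and 18119.6 after PBS and 6956, 15274, 8153 and 13571 after glycerol. Glycerol values were below all PBS values in both genotypes, and the C3-/- glycerol libraries fell into a low pair (1 and 3) and a high pair (2 and 4).

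Wnk1 fell in WT by 1.62 ± 0.28 on the log2 scale (limma adjusted p = 0.000841), and its change in C3-/- was -0.72 ± 0.28 (adjusted p = 0.139). After glycerol Wnk1 was 0.92 ± 0.28 higher in C3-/- than in WT (adjusted p = 0.0486). That call ended in 13 of the 16 fits that each left out 1 library, with adjusted p between 0.0554 and 0.119. It also ended with quantile normalization (0.0815), with no filter on low values (0.0513), with a mean of at least 100 (0.0525) and in the fit of the 8 glycerol libraries alone (0.336). Without the 3 libraries together it held (1.10, adjusted p = 5.8e-05), and so did the difference between the responses (1.09, adjusted p = 0.00191, against 0.90 and 0.449 with all 16).

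Trpm6, the apical magnesium channel (chr19:18749983-18892511), changed little after glycerol. The WT values were 408, 465, 478 and 683 after PBS and 378, 442.5, 325 and 444.5 after glycerol. The C3-/- values were 812, 802, 735 and 883 after PBS and 574, 768, 651 and 385 after glycerol. Both pairs of groups overlapped, and the changes of -0.34 ± 0.21 in WT and -0.48 ± 0.21 in C3-/- were not called (limma adjusted p = 0.26 and 0.18). After PBS every C3-/- library was above every WT library. That difference of 0.69 ± 0.21 was not called with all 16 libraries (adjusted p = 0.135) and was called without the 3 of repeated number (0.0313).

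Trpv5, the apical calcium channel (chr6:41652173-41680769), was the member whose WT values did not go down. In WT it was at 506, 558.5, 492 and 642 after PBS and at 946, 923, 828 and 272 after glycerol. WT glycerol libraries 1 to 3 were above all PBS libraries, and library 4 was below them. In C3-/- it was at 499, 489, 561 and 632 after PBS and at 174, 512, 108 and 503 after glycerol, so that libraries 1 and 3 were low and libraries 2 and 4 lay within the PBS range.

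With all 16 libraries the Trpv5 changes were 0.28 ± 0.47 in WT (limma adjusted p = 0.68) and -1.04 ± 0.47 in C3-/- (0.189). In the 13 other libraries Trpv5 rose in WT by 0.71 (adjusted p = 0.000176) and changed by -0.10 in C3-/- (0.635), and the responses differed by -0.81 (0.0129). After glycerol the C3-/- level minus the WT level was then -0.82 (adjusted p = 0.000877), against -1.33 ± 0.47 with all 16 (0.0841).

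Calb1 encodes calbindin, the protein that buffers and ferries calcium through the cell (ENSMUSG00000028222, chr4:15881264-15908064), and it was the member called lower in both genotypes. In WT it was at 10757, 11848, 12347 and 15050.3 after PBS and at 2995, 2716, 3789 and 1792 after glycerol. In C3-/- it was at 14321, 12338, 13810.4 and 15698 after PBS and at 5279, 9247, 3847 and 4605 after glycerol. Within each genotype no glycerol value reached a PBS value.

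The Calb1 fall was -2.19 ± 0.26 in WT (limma adjusted p = 4.82e-05) and -1.37 ± 0.26 in C3-/- (0.00649), which left 22.6% and 40.9% of the PBS means. After glycerol it was 0.99 ± 0.26 higher in C3-/- (adjusted p = 0.0224), with all C3-/- libraries above all WT libraries. This call ended without WT glycerol library 2 (0.0540), without C3-/- glycerol library 2 (0.0541) and in the fit of the 8 glycerol libraries alone (0.225). The difference between the responses, 0.82 ± 0.37, was not called (0.457).

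Slc8a1, the basolateral sodium-calcium exchanger (chr17:81373105-81738377), moved much like Calb1. In WT it was at 6195, 7019, 8126 and 8906 after PBS and at 2456, 1424, 2694 and 1143 after glycerol, with no overlap. In C3-/- it was at 6469, 5783.5, 5555 and 7956 after PBS and at 2381, 5869, 1846 and 3425 after glycerol, where library 2 reached into the PBS range.

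Slc8a1 fell in WT by 2.05 ± 0.33 on the log2 scale (limma adjusted p = 0.000504), and its change in C3-/- was -1.06 ± 0.33 (0.0746). The C3-/- change was called without WT glycerol library 4 (-1.06, 0.034) and without C3-/- glycerol library 2 (-1.37, 0.0159), and it was -0.51 without the 3 libraries of repeated number (0.196). Exons of other genes on the opposite strand overlap 1.62% of the exonic bases of Slc8a1, and none overlap those of the other 9 members. The exchanger is also expressed in smooth muscle, whose 5 listed markers summed to between 4236 and 9070.2 in WT glycerol and between 2818 and 8034 in C3-/- glycerol libraries, and their part in the result was not tested.

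Pvalb, the calcium-binding protein of the early distal convoluted tubule (ENSMUSG00000005716, chr15:78191114-78206400), had the largest change of the 10. In WT it was at 343, 337, 334 and 385 after PBS and at 35.6, 9.4, 55.9 and 8.5 after glycerol. In C3-/- it was at 566, 440.1, 617 and 637 after PBS and at 793, 639, 624 and 137 after glycerol. The WT glycerol group was far below every other library, and C3-/- glycerol library 4 was the one C3-/- library below the WT PBS values.

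In WT, Pvalb fell by 4.04 ± 0.57 on the log2 scale (limma adjusted p = 0.000183), a mean of 27.3 ± 22.8 after glycerol against 350 ± 23.7 after PBS (SD, n = 4). In C3-/- the means were 548 ± 285 and 565.05 ± 88.5, and the change was -0.29 ± 0.57 (adjusted p = 0.749). After glycerol Pvalb was 4.42 ± 0.57 higher in C3-/- (adjusted p = 0.000163). The difference between the responses, 3.75 ± 0.81, was not called with all 16 libraries (0.0612). It was called without WT glycerol library 3 (4.22, 0.0224) or without C3-/- glycerol library 4 (4.32, 0.00881), and was 2.74 without the 3 libraries of repeated number (0.0504).

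Fast skeletal muscle also makes parvalbumin. Of the 6 fast muscle markers listed, Acta1, Ckm, Tnnt3 and Myh4 were not among the genes of the matrix used here, and Mylpf and Atp2a1 together summed to between 12.4 and 99.7 in every library. Their sum was between 19.6 and 30.6 in WT PBS and between 17.1 and 99.7 in C3-/- glycerol libraries, and their part in the Pvalb values was not tested.

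**Figure D2:**
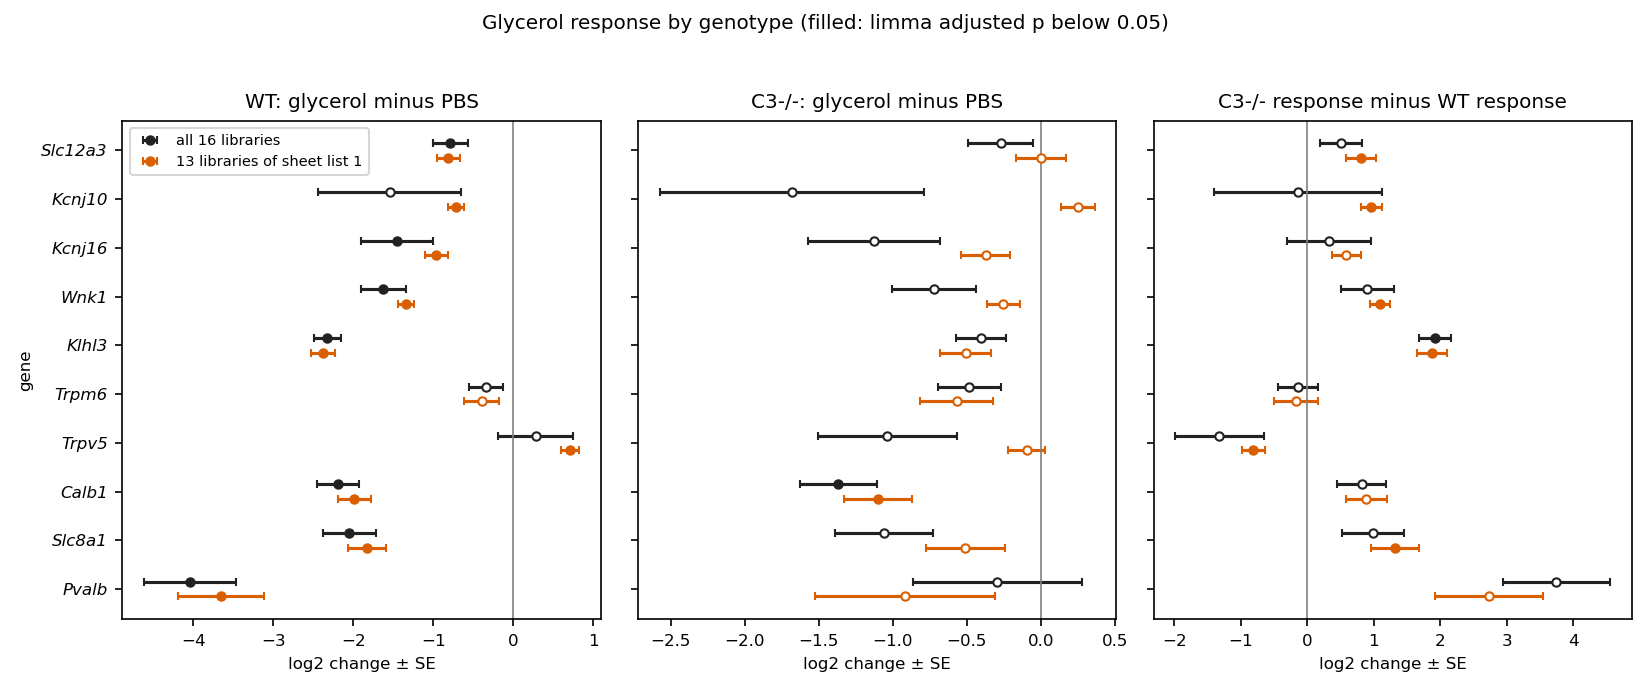
Change after glycerol on the log2(normalized count + 1) scale, with its SE, in WT, in C3-/- and as the difference between them, for all 16 libraries (black) and for the 13 without a repeated number (orange); filled circles have a limma adjusted p below 0.05. In WT most genes lie left of 0 with Pvalb at -4.04, whereas in C3-/- Calb1 is the filled circle in both fits.

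Set side by side, the responses differed between genotypes for 1 member with all 16 libraries, Klhl3, where 0.438% of all genes were called for this difference. After glycerol 4 members (Klhl3, Pvalb, Calb1 and Wnk1) were called higher in C3-/- than in WT and none lower, against 6.38% of all genes higher and 11.2% in either direction. The median member difference after glycerol was 0.65, against 0.04 for all genes. Values of the genotypes did not overlap for 3 of them (Klhl3, Pvalb and Calb1), where 6.21% of all genes were higher in C3-/- without overlap. After glycerol Ddx3y was at 0 in C3-/- libraries 1 and 2 and between 1138.6 and 1961.1 in the WT libraries. Genotype and this difference can therefore not be fully told apart after glycerol.

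Without the 3 libraries of repeated number more members were called, and so were more genes of every kind. In WT, 8 members were lower and 1 (Trpv5) higher, where 28.9% of all genes were lower and 26.7% higher, 55.6% together. In C3-/- Calb1 was again the 1 called member, where 10.6% of all genes were lower and 23% were called in either direction. After glycerol 6 members were higher in C3-/- and 1 (Trpv5) lower, where 15.5% of all genes were higher and 14.6% lower, 30.1% together. The responses then differed for 6 members (Slc12a3, Slc8a1, Wnk1, Klhl3 and Kcnj10 higher in C3-/-, Trpv5 lower), against 10.3% of all genes. With all 16 libraries and terms for the repeated numbers and for the presence of Ddx3y, they differed for 8 members, against 8.76%, and 8 members differed between the genotypes after glycerol, against 33.6%.

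After PBS no member was called between the genotypes by limma with all 16 libraries, where 2.23% of all genes were called. An unadjusted p below 0.05 was found for 2 members, and the share of all genes at that threshold is not given here. The member median was 0.02, equal to that of all genes. Trpm6, Kcnj10 and Pvalb were higher in every C3-/- library than in any WT library and Slc12a3 was lower, where 13.9% of all genes were higher and 13.1% lower without overlap. Slc12a3 was at 26718 ± 2659 in C3-/- against 37609 ± 2764 in WT (SD, n = 4), a difference of -0.50 ± 0.22 (adjusted p = 0.431). In the 13 other libraries Slc12a3 (adjusted p = 0.0252), Trpm6 (0.0313) and Kcnj10 (a difference of 0.36, 0.0192) were called, which is near the 19.3% of all genes called in that fit. In the limma fit of the PBS libraries alone Slc12a3 (0.00588), Pvalb (0.00443), Trpm6 (0.0097) and Kcnj10 (0.00951) were called, and the share of all genes is not given here. The differences are the same in these fits, and only the spread taken from the libraries fitted changed. Of these PBS libraries, 3 of the C3-/- group lacked Ddx3y and none of the WT group did, so that genotype and this difference cannot be fully told apart.

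Relative to Slc12a3 in the same library, 5 of the 9 other members (Pvalb, Calb1, Slc8a1, Wnk1 and Klhl3) lay lower in every WT glycerol library than in any WT PBS library, and 4 overlapped (Trpm6, Trpv5, Kcnj10 and Kcnj16). In C3-/- libraries 2 of the 9 (Calb1 and Slc8a1) lay lower after glycerol without overlap, and 7 overlapped. How many of all genes would lie lower by this ratio was not counted. Per 1000 of Slc12a3, Pvalb was at 9.31 ± 0.33 in WT PBS, 1.24 ± 1.06 in WT glycerol, 21.2 ± 3.03 in C3-/- PBS and 26.0 ± 16.6 in C3-/- glycerol libraries (SD, n = 4). For Klhl3 the same ratio was 53.5 ± 3.09, 18.5 ± 2.71, 76.6 ± 6.79 and 72.8 ± 26.3. For Calb1 it was 331 ± 26.6, 131 ± 43.5, 526 ± 28.8 and 248 ± 37.2. These 3 genes were thus lower in WT by more than the cotransporter was. Trpm6 went from 13.4 ± 2.19 to 18.4 ± 3.95 in WT. The Kcnj10 ratio was between 70.5 and 77.5 after PBS and at 75.7, 81.2, 81.5 and 7.40 after glycerol, where the library of repeated number lay far below the rest.

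**Figure D3:**
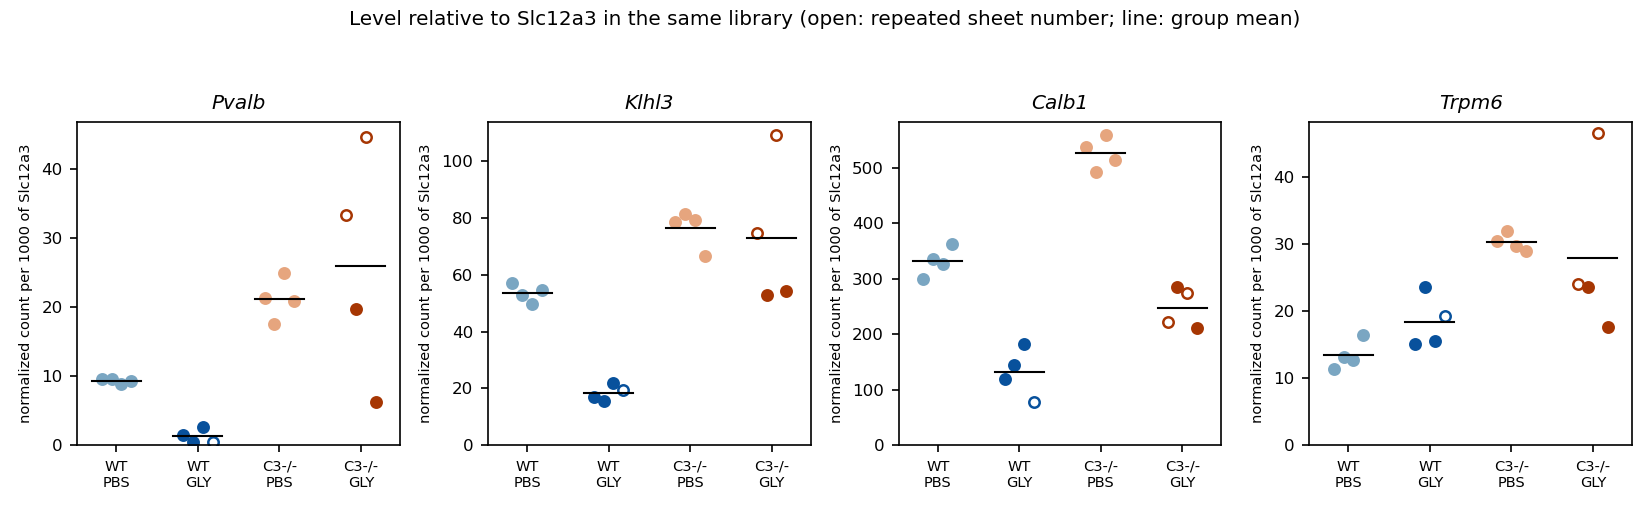
Normalized count of Pvalb, Klhl3, Calb1 and Trpm6 per 1000 normalized counts of Slc12a3 in the same library, by group; open circles are libraries with a repeated number and lines are group means. The WT glycerol points of Pvalb, Klhl3 and Calb1 lie below all WT PBS points, and those of Trpm6 do not.

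Divided by the length of the merged exons of all annotated transcripts, Kcnj16 had the highest mean level in all 4 groups. That length was 3.936 kb for Kcnj16 and 11.119 kb for Slc12a3. The order of genes depends on it, and the lengths of the transcripts expressed here were not measured. In WT glycerol libraries Kcnj16 (650.93 to 3103.2 per kb) overlapped Slc12a3 (1687.2 to 2253.8). In WT PBS libraries Kcnj16 was at 4959.9 ± 90.5 normalized counts per kb, followed by Slc12a3 at 3382 ± 248.6, Calb1 at 2579.6 ± 377, Wnk1 at 747 ± 71.2 and Kcnj10 at 518 ± 50.3. Slc8a1 (402 ± 63.6) and Pvalb (336 ± 22.8) followed with overlapping values, then Klhl3 (275 ± 25.5), Trpv5 (169.5 ± 21.0) and Trpm6 (65.8 ± 15.6). The last 3 did not overlap with their neighbours. In WT glycerol libraries Pvalb was the lowest of the 10 at 26.3 ± 21.9 per kb, below Trpm6 (51.5 ± 7.42) and Klhl3 (55.5 ± 10.4), although these 3 overlapped in part. In C3-/- PBS libraries Calb1 (2898 ± 286) stood above Slc12a3 (2403 ± 239), with overlap. In C3-/- glycerol libraries Slc12a3 (2073.5 ± 685) stood above Calb1 (1185 ± 497) and Pvalb came next (527 ± 274), and all neighbours in that order overlapped except Calb1 and Pvalb.

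The other genes of these pathways were described by list, with glycerol against PBS in WT first. The counts below stand against 13.3% of all tested genes lower and 25.9% called in either direction, and the medians against -0.11. Among 10 regulators of the cotransporter in the WNK and SPAK pathway, 2 were lower and none higher, with a median of -0.24. They were Cab39l (-0.83 ± 0.21, limma adjusted p = 0.00997), a scaffold of SPAK, and Ppp1r1a (-1.47 ± 0.48, 0.0339), an inhibitor of protein phosphatase. Of 8 genes for chloride exit and the sodium-potassium pump, 5 were lower and none higher, with a median of -0.96. Bsnd, which encodes barttin, was among them (-1.07 ± 0.26, 0.00823).

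Magnesium handling held the largest single fall. Of 9 tested genes 5 were lower and none higher, with a median of -0.78. Egf, the precursor of a growth factor that stimulates TRPM6 and is made in the thick ascending limb and distal convoluted tubule, was at 58289, 60979, 56029.7 and 65237 in WT PBS and at 1798, 770.5, 3398 and 180.4 in WT glycerol libraries. Its change was -5.96 ± 0.70 (limma adjusted p = 4.32e-05), and -5.16 without the 3 libraries of repeated number (7.57e-07). In C3-/- glycerol libraries Egf was at 4419, 33348, 12483.5 and 14108, all below the C3-/- PBS libraries (56915 to 62566). That change of -2.23 ± 0.70 was not called (0.0756), while in the 13 other libraries it was -1.46 and called (0.0328), and Egf was 3.72 ± 0.70 higher in C3-/- than in WT after glycerol (0.00308).

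Calcium handling was the list with a called rise. Of its 8 genes 1 was higher and 3 lower in WT, with a median of -0.52. Trpv6, the relative of Trpv5 that also takes up calcium, went from 33.9, 32.5, 30.1 and 22.9 in WT PBS to 202, 243, 181 and 436 in WT glycerol libraries. It rose by 3.04 ± 0.32 in WT (limma adjusted p = 1.64e-05) and by 1.78 ± 0.32 in C3-/- (0.00415), without overlap in either genotype. The vitamin D receptor Vdr (-1.41 ± 0.24, 0.000705), the FGF co-receptor Kl (-2.70 ± 0.49, 0.00117) and the calcium-sensing receptor Casr (-2.56 ± 0.71, 0.0155) were lower in WT. Vdr was 1.14 ± 0.24 higher in C3-/- than in WT after glycerol (0.0061).

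Among 8 genes of aldosterone-sensitive transport, 3 were lower in WT and none higher, with a median of -1.14. These were Hsd11b2 (-1.40 ± 0.25, limma adjusted p = 0.000919), the enzyme that shields the mineralocorticoid receptor from glucocorticoids, the sodium channel subunit Scnn1a (-1.04 ± 0.19, 0.00119) and the potassium channel Kcnj1 (-1.62 ± 0.44, 0.0143). After PBS, Klk1, the tissue kallikrein made in the connecting tubule, was lower in C3-/- (-1.12 ± 0.23, 0.0159). Of 7 transcription factors of the distal tubule, 4 were lower in WT and none higher, with a median of -1.48: Sall3 (-1.80 ± 0.25, 0.00016), Esrrb (-2.22 ± 0.36, 0.000559), Emx1 (-1.48 ± 0.32, 0.00396) and Esrrg (-2.05 ± 0.57, 0.0156). In the 13 other libraries the WT changes of Casr and Esrrg were -1.78 and -1.37, both called (3.35e-05 and 3.13e-05).

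**Figure D4:**
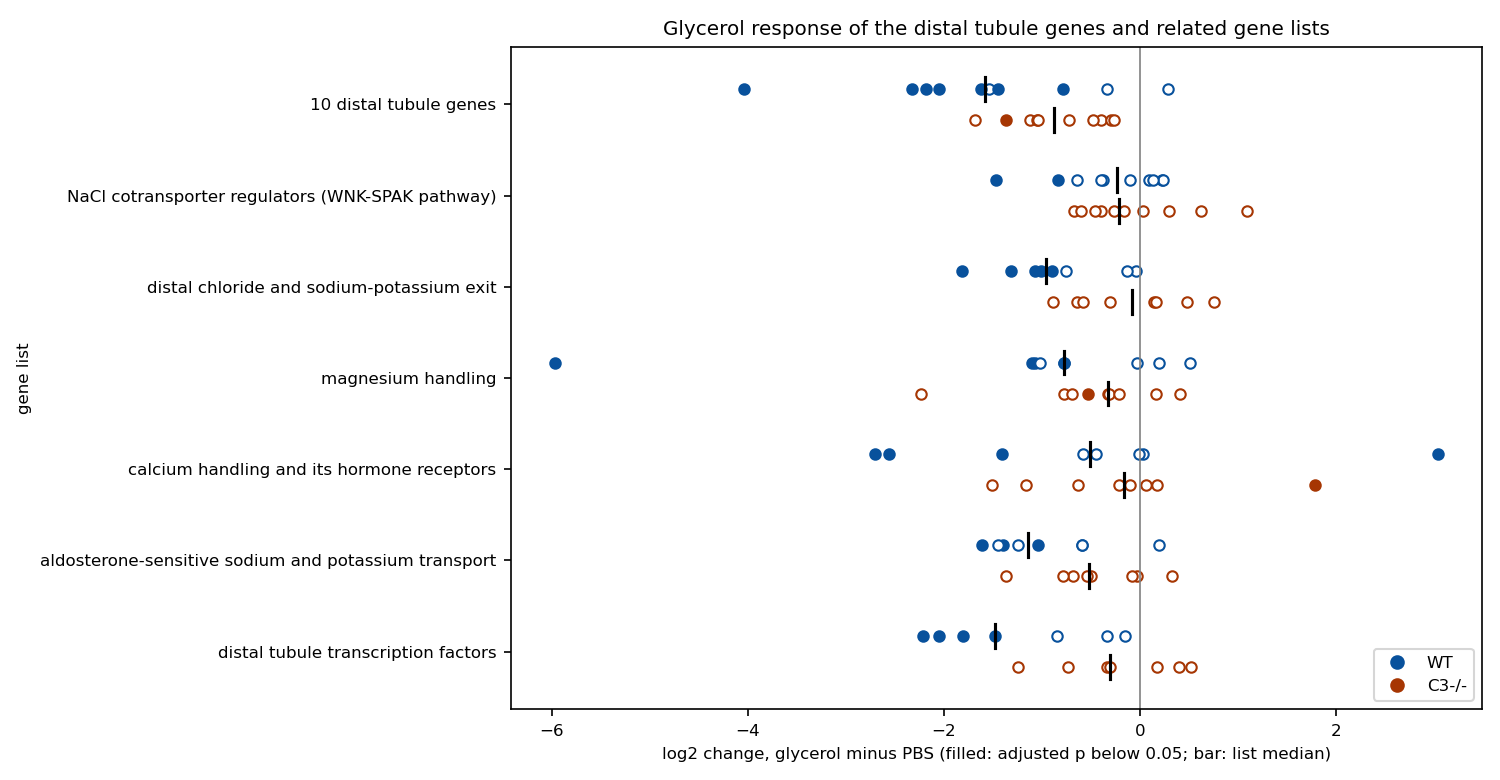
Change after glycerol (log2 scale) of each tested gene of the 10 distal genes and 6 related lists, in WT (blue) and C3-/- (brown); filled circles have a limma adjusted p below 0.05 and bars are list medians. The C3-/- median lies to the right of the WT median in every list, and 3 of the C3-/- circles are filled (Calb1, Trpm7 and Trpv6).

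In C3-/- kidneys 2 of these 50 other genes were called after glycerol, where 5.63% of all genes were called, Trpv6 higher and the magnesium-permeable channel Trpm7 lower (-0.53 ± 0.14, limma adjusted p = 0.0433; -0.78 ± 0.14 and 0.00126 in WT). After glycerol 10 of them were higher in C3-/- than in WT and none lower, against 6.38% of all genes higher. Beside Egf and Vdr they included Ppp1r1a, Bsnd, Hsd11b2, Scnn1a, Sall3, Esrrb and Emx1, with differences from 0.99 to 2.29. The highest of these was Ppp1r1a, at 17659, 4483, 12425 and 3199 in C3-/- glycerol libraries, where libraries 1 and 3 were the high ones, and its difference was 1.71 without the 3 libraries (adjusted p = 7.6e-05). The difference between the responses was called for 0 of the 50 by limma with all 16 libraries. An unadjusted p below 0.05 was found for 11, and the share of all genes at that threshold is not given here. Without the 3 libraries of repeated number, 34 of the 50 were lower and 4 higher in WT after glycerol, 6 and 2 in C3-/-, and the responses differed for 22, with 20 of them higher in C3-/-. In that fit 28.9% of all genes were lower and 26.7% higher in WT, 23% were called in C3-/- and 10.3% differed in response, so that the C3-/- count lay below the share of all genes.

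Markers of other segments were also lower in WT, where 13.3% of all tested genes were lower. In WT after glycerol 7 of 8 proximal tubule markers, 2 of 5 thick ascending limb markers, 2 of 4 principal cell markers and 3 of 5 intercalated cell markers were lower and none higher, with medians of -2.09, -1.01, -0.76 and -0.90. In C3-/- 1 proximal tubule marker was called lower and none of the other segments. Slc12a1, the cotransporter of the thick ascending limb, was between 5128 and 10405 in WT glycerol libraries and between 60859 and 68896 in WT PBS libraries. No marker of these lists was listed at 0 in any library.

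The 6 tubule injury markers summed to between 55394 and 92623 in WT glycerol and between 2432 and 16005 in C3-/- glycerol libraries, against 590 to 1004 after PBS. After glycerol 5 of the 6 were called lower in C3-/- than in WT. Havcr1, the injury molecule of the proximal tubule, was at 3449.7, 3579, 1088 and 9458 in C3-/- glycerol libraries. Library 4, with the highest Havcr1, had the lowest Pvalb, Klhl3 and Trpm6 of that group and the highest Kcnj16. Library 3, with the lowest Havcr1, had the lowest Slc12a3, Calb1, Slc8a1, Trpv5 and Kcnj10. Library 3 carries a repeated number and library 4 does not, so that this difference and Havcr1 cannot be told apart between them. The part of injury in the distal changes was not tested.

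Genes whose 16 values were most like those of a member were sought among 12606 named genes by the root mean square difference of log2 values centred on the WT PBS mean. Calb1 was nearest to Acss1 (0.19) and Slc8a1 (0.30), the one pair of members that stood among the 3 nearest genes of each other. Klhl3 was nearest to Klkb1 (0.26), Wnk1 to Atp6v1b1 (0.16), a proton pump subunit of intercalated cells, Slc12a3 to Magi2 (0.21), Kcnj16 to Ccpg1 (0.16), Trpv5 to Lratd2 (0.23), Trpm6 to Zfp651 (0.28) and Kcnj10 to Pstpip2 (0.37). Pvalb had no close match, the nearest being Ppp1r1b at 0.64, an inhibitor of protein phosphatase. Ppp1r1b was at 181, 113, 236 and 79.4 in WT glycerol and between 1574 and 3138 in C3-/- libraries.

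The authors' deposited table for WT lists lower values after glycerol at an adjusted p below 0.05 for the same 7 members, Pvalb at -3.54 (adjusted p = 3.97e-10) and Klhl3 at -2.33 (6.41e-39) among them, where 29% of its genes passed. In the authors' deposited table for C3-/-, Calb1 (-1.29, 0.000113) and Slc8a1 (-0.93, 0.048) passed, where 15.9% of its genes did. The authors' deposited table for the genotypes after glycerol adds Trpv5, lower in C3-/- (-1.21, 0.0429), to the 4 members called here, where 16.8% of its genes passed.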

How the data were processed

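Kidney RNA was sequenced in 16 libraries, 4 per group, named by group and number in their titles. Per the file headers, the deposited matrix holds a signal per gene and library, and its name ascribes the values to normalization with DESeq2. Per the submitters' processing notes, the build was GRCm38 and the tools included R 3.6.1, STAR 2.7.1 and DESeq2. How reads were counted, with or without strand, was not stated in the sources. The authors also deposited 3 tables of comparisons, quoted but not recomputed, with log2 fold changes and raw and adjusted p-values. A score that the authors deposited in them, a test statistic per the file headers, was not used.

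Between 1.78% and 2.11% of each library's values lay within 0.01 of a multiple of the lowest one, so that whole reads were not recovered, no depth is known and count models were not used. Precision rests on the spread between libraries. No pair of libraries was identical.

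The test was limma 3.58.1 (R 4.3.3) on log2(normalized count + 1), with 1 coefficient per group, a mean-variance trend and two-sided tests. Genes with at least 10 in at least 4 libraries entered (18035 of 20525). A pseudocount understates changes of low genes. Group means and figures were made with Python 3.11.15. Intervals of differences are 95% intervals from limma. Calculations were tested on simulated data. Exon lengths come from GENCODE M21.

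The members, gene lists, comparisons and motifs were chosen with earlier results of these data known. Named genes were all members, C3, up to 4 genes per pathway list with the smallest p in WT after glycerol, list genes called elsewhere where 5 or fewer of the list were called, and the 3 genes nearest to each member; some list genes are not reported here. Alternatives covered the pseudocount, the filter, scaling, library weights, the libraries fitted, a replicate block, the repeated numbers and each library left out.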

Additional observations from a re-analysis of the deposited data

Results flagged for a closer look

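In the 40 sets of 4 libraries (10 genes in 4 groups), a library was looked for whose gap to its nearest neighbour took up more than 0.829 of the range of its group, Dixon's critical value for 4 values, which chance exceeds in about 1 of 20 groups. There were 2 such libraries. Kcnj10 was at 3210.3 in WT PBS library 4, with a gap of 0.971 of the range, where the other 3 lay between 2660.3 and 2676. Kcnj16 was at 20328.9 in C3-/- PBS library 4, with a gap of 0.837 of the range, where the other 3 lay between 15789 and 16527.

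The glycerol response of Klhl3 differed between the genotypes, at 1.92 for the response in C3-/- minus that in WT (limma adjusted p = 0.00268). Every WT glycerol library had less Klhl3 than every other library.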

How the results depend on the processing

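The limits are the small groups, the unknown depth and the 3 libraries of repeated number. No cause was tested for the changes below. Array weights were lowest in these 3 libraries (0.036, 0.052 and 0.054), so that fit is not independent of the one without them. Beside the 7 members called in WT, 10 were called with array weights (9 lower and 1 higher), 9 without the 3 libraries and with terms for the repeated numbers and Ddx3y (8 lower and 1 higher in each), 5 with quantile normalization, and 5 to 7 when 1 library was left out. For C3-/- after glycerol the count of 1 became 3 with array weights and 1 to 4 with 1 library left out. For the genotypes after glycerol the count of 4 became 3 with quantile normalization, with no filter and with a mean of at least 100 (Wnk1 lost in each), 2 in the fit of the compared groups alone, 8 with array weights, 7 without the 3 libraries, 8 with both terms, and 2 to 5 with 1 library left out. After PBS the count of 0 became 4 in the compared groups alone, 2 with array weights and 3 without the 3 libraries, and it was 0 with any 1 library left out. For the difference between the responses the count of 1 became 2 with a pseudocount of 8, 7 with array weights, 6 without the 3 libraries, 8 with both terms and 1 to 2 with 1 library left out. The compared groups alone give no fit for that difference. The share of all genes called also moved: after PBS it was 2.23% with all 16 libraries and 19.3% without the 3. That share is not given here for the other kinds of fit, except the one with both terms. These counts alone therefore do not set the members apart from all genes.

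Whether the replicate numbers pair the samples was not settled: of 24 correlations between same-numbered libraries, ranging from -0.692 to 0.385, 4 exceeded 0.1. Between the glycerol groups they were -0.676, -0.366 and -0.692 for replicates 1, 3 and 4, each of which sets a library of repeated number against another. Such values cannot exclude a pairing. With the replicate block the count after glycerol became 2, since Calb1 (adjusted p = 0.0522) and Wnk1 (0.0953) were no longer called, and in WT Kcnj16 was not called (0.0565). It changed no other call.

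All changes of sign were in values that were not called with all 16 libraries. With array weights Slc12a3 in C3-/- after glycerol was 0.0944, Kcnj10 there 0.17 and the Kcnj10 difference between the responses 0.78. Without the 3 libraries these were 0.0038, 0.25 and 0.97. With both terms the Kcnj10 values were 0.20 and 0.84, Slc12a3 between the genotypes after glycerol was -0.0502, and after PBS Calb1 was -0.0687 and Klhl3 -0.14. Quantile normalization gave -0.0774 for Slc12a3 between the genotypes after glycerol and 0.0183 for Kcnj16 after PBS. With 1 library left out, the differences between the genotypes after glycerol ranged from -0.60 to 0.99 for Kcnj10, from -0.35 to 0.41 for Kcnj16 and from -0.17 to 0.24 for Slc12a3. After PBS they ranged from -0.0173 to 0.0757 for Klhl3, from -0.0857 to 0.0652 for Trpv5 and from -0.0288 to 0.0767 for Wnk1. The C3-/- change of Pvalb ranged from -0.56 to 0.28, and the differences between the responses from -0.97 to 0.63 for Kcnj10, from -0.17 to 0.60 for Kcnj16 and from -0.30 to 0.0478 for Trpm6.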
